A study of Homo sapiens with 6 samples.

Results

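The transcripts described here in iCLIP data for QKI-5 encode splicing factors of the serine- and arginine-rich (SR) family and its TRA2 relatives. The 9 genes are SRSF1, SRSF2, SRSF3, SRSF5, SRSF6, SRSF7, SRSF11, TRA2A and TRA2B, chosen by name, and each is a fixed hg19 interval on its own strand. They are 9 of 29951 features that entered the test, the others being strand-specific 10 kb windows. The tested material was 3 QKI-5 libraries, made with an antibody to QKI-5, a nuclear isoform of Quaking, against 3 control libraries made without antibody. All 6 came from BEAS2B, an established line of bronchial epithelial cells irradiated with UV at 150 mJ per cm2, then lysed and treated with RNase A at a high or a low dilution, and the labels do not tell which library had which. Each group is numbered 1 to 3. Since no label ties the numbers to separate cultures, the p-values speak only for the spread among these 6 libraries, and that spread may be technical.

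SR proteins bind exons through RNA-recognition motifs and recruit the splicing machinery through their arginine- and serine-rich domains. TRA2A and TRA2B are SR-like activators of exon inclusion. Most genes of the family carry a poison exon, a conserved cassette whose inclusion brings in an early stop codon and sends the transcript to nonsense-mediated decay, and through it many of these proteins limit their own level. QKI-5 belongs to the STAR family, binds ACUAA-type elements, mostly in introns, and shifts the choice of neighbouring exons. The poison exons were not placed on the hg19 intervals here, so events are given by distance along each gene and not by exon or intron.

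iCLIP marks the nucleotide where protein was crosslinked to RNA. The deposited values are whole-number counts of such events per position. The QKI-5 libraries held 7283982, 2143279 and 2889146 events and the controls 137926, 41475 and 29810. EPM are events per 1000000 events of a library, so 1 event was worth 0.137 to 0.467 EPM in the QKI-5 libraries and 7.25 to 33.5 EPM in the controls. Control values of a single gene are therefore coarse.

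The first comparison asked whether the 9 transcripts took a different part of the crosslink events with the antibody than without it. None of the 9 passed the test in either direction, and SRSF3 alone had groups that did not overlap. The 9 genes took up 0.115, 0.107 and 0.116% of each library in QKI-5 replicates 1, 2 and 3, against 0.136, 0.0964 and 0.117% in controls 1, 2 and 3. The means were 0.113 ± 0.00520% in QKI-5 libraries and 0.117 ± 0.0199% in controls (SD, n = 3 each), a ratio of 0.967, and the groups overlapped. These shares rest on 14060 events in QKI-5 libraries and 263 in controls, of which control 1 gave 188. Without control 1 the ratio was 1.06.

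Among the short SR genes, SRSF1, the exon enhancer-binding factor also known as ASF/SF2, held 90.6, 112 and 99.7 EPM with the antibody in replicates 1, 2 and 3, against 152, 0 and 268 EPM in controls 1, 2 and 3, from 21, 0 and 8 events. Its controls lay on both sides of the QKI-5 range. SRSF2, an SR protein that does not shuttle out of the nucleus, held 34.9, 48.5 and 48.8 EPM with the QKI-5 antibody, against 79.8, 48.2 and 0 EPM in controls. SRSF3, a small SR protein that also acts in mRNA export, held 116, 105 and 87.6 EPM with the QKI-5 antibody, against 123, 121 and 134 EPM in controls. In SRSF3 every QKI-5 library lay below every control. That order held for 1 of the 9 genes and for 3.64% of all features tested, while the reverse order held for none of the 9 and for 23.7% of features.

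SRSF5 and SRSF6 are SR proteins with a pair of RNA-recognition motifs each. SRSF5 held 79.1, 85.4 and 84.1 EPM with the QKI-5 antibody, against 123, 48.2 and 0 EPM in controls, from 17, 2 and 0 events. For SRSF6 the values were 96.9, 81.2 and 81.0 EPM with the QKI-5 antibody, against 102, 48.2 and 67.1 EPM in controls. In both genes control 1 lay above every QKI-5 library and the other controls below. SRSF7, a relative of SRSF3 with a zinc knuckle, held 55.3, 77.0 and 64.7 EPM with the QKI-5 antibody, against 72.5, 0 and 33.5 EPM in controls.

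The 3 long genes were SRSF11, TRA2A and TRA2B. SRSF11, an SR-related protein, held 311, 265 and 364 EPM with the QKI-5 antibody, against 369.8, 362 and 369 EPM in controls, from 51, 15 and 11 events. TRA2A held 161, 141 and 152 EPM with the QKI-5 antibody, against 174, 145 and 201 EPM in controls. TRA2B, the better-known TRA2 paralog, held 209, 154 and 182 EPM with the QKI-5 antibody, against 167, 193 and 101 EPM in controls. The groups overlapped in all 3 genes, and only for TRA2B among them was the QKI-5 mean the higher one. Over the 9 genes, the mean EPM was lower in QKI-5 libraries in 4 (SRSF1, SRSF3, SRSF11 and TRA2A), against 38.4% of all features.

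**Figure D1:**
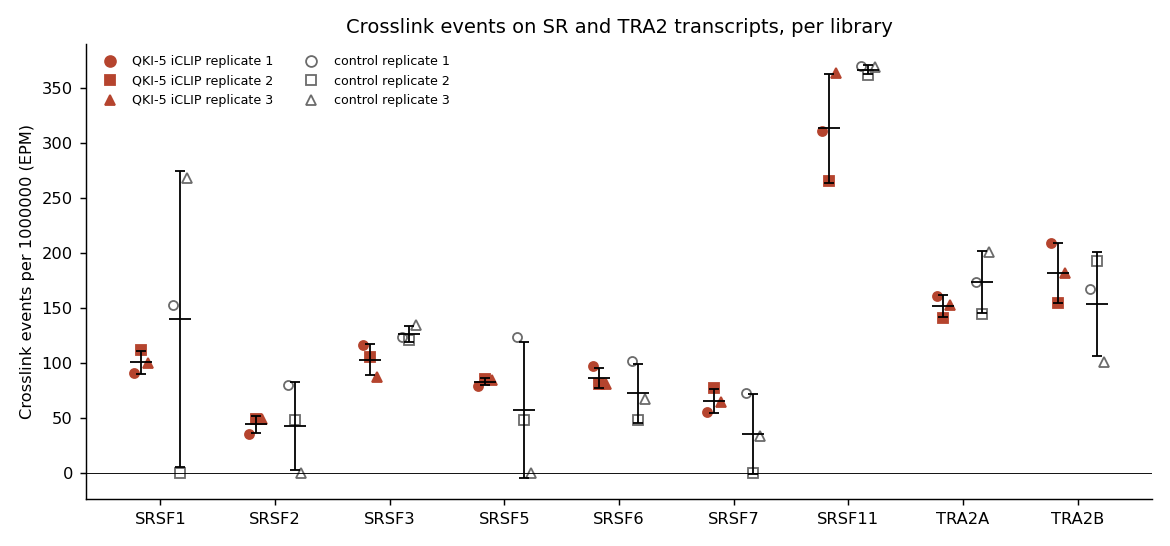
EPM of each gene (y axis) in each library, with QKI-5 libraries filled and controls open, the horizontal marks being group means and the bars SD (n = 3 each). The groups overlap in every gene but SRSF3, where QKI-5 libraries held 87.6 to 116 EPM and controls 121 to 134 EPM.

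The edgeR quasi-likelihood test over all 29951 features called 0 of the 9 genes higher and 0 lower in QKI-5 libraries at an adjusted p under 0.05. Over all features 0.711% were called higher and 0.107% lower. None of the 9 had an unadjusted p under 0.05 in edgeR, against 5516 of all 29951 features. The DESeq2 Wald test also called 0 of the 9 genes. The smallest adjusted p among them in edgeR was 0.415, for TRA2B, whose log2 fold change (QKI-5 over control) was 0.79 (SE 0.50). That of SRSF7 was 0.92 (SE 0.61, adjusted p = 0.428 by edgeR), and those of the other 7 lay between 0.10 for SRSF2 and 0.62 for SRSF6.

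The median log2 fold change over all features in this fit was 0.78 with TMM scaling. It depends on which features are tested. Without the filter on low counts it was 1.66, while the median of the 9 genes went from 0.44 to 0.93. Values relative to it are descriptions and not corrected fold changes. Relative to the median of 0.78, SRSF1 was at -0.62, SRSF2 at -0.69, SRSF3 at -0.45, SRSF5 at -0.28, SRSF6 at -0.16, SRSF11 at -0.36 and TRA2A at -0.35. TRA2B was at 0.00 and SRSF7 at 0.14. The median of the 9 genes was 0.44, and 7 of the 9 lay below the median of all features, as 50% of features do. With library totals in place of TMM the median of all features was 0.22 and that of the 9 genes -0.18, and 6 of the 9 fold changes were negative, while SRSF6, SRSF7 and TRA2B stayed positive at 0.055, 0.37 and 0.18. The sign of the other 6 turned with the scaling.

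**Figure D2:**
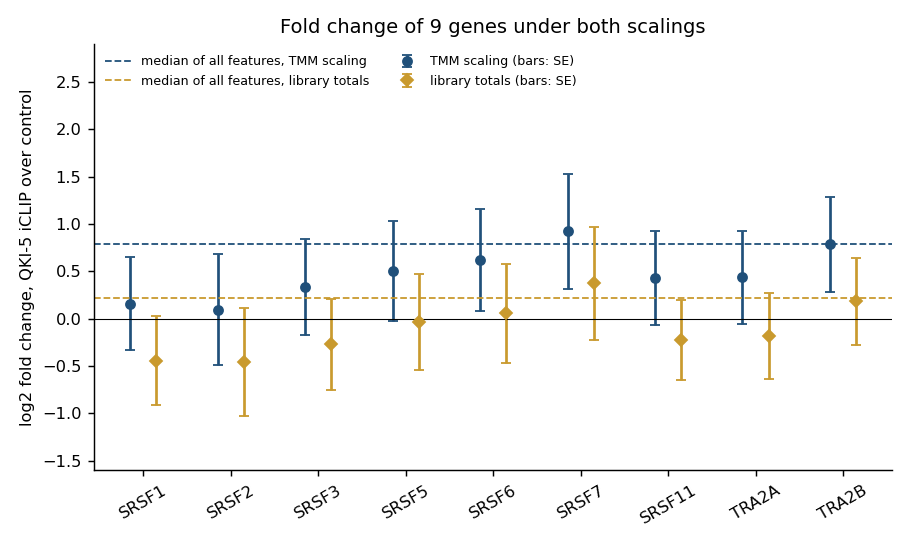
Log2 fold change of each gene, QKI-5 over control (y axis), with TMM scaling (circles) and with library totals (diamonds), bars being SE of the edgeR fit on 3 libraries a group and dashed lines the median of all 29951 features. The 9 genes shift together between scalings, with medians of 0.44 and -0.18.

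Counts pooled over libraries give the counting error of each ratio, scaled here by library totals and not by TMM. The ratio of pooled EPM, QKI-5 over control, was 0.857 for SRSF11 (95% exact interval 0.684 to 1.09) and 0.904 for TRA2A (0.650 to 1.29). For TRA2B it was 1.19 (0.847 to 1.72) and for SRSF3 0.866 (0.588 to 1.33). The lowest ratios were 0.652 for SRSF2 (0.378 to 1.23) and 0.695 for SRSF1 (0.482 to 1.04), while SRSF5 was at 0.896 (0.571 to 1.49). SRSF2 and SRSF5 were thus below 1 when pooled, though their mean EPM over libraries was higher with the antibody. The widest interval, that of SRSF7, ran from 0.648 to 2.35. These intervals cover counting error only, and all 9 contain 1. A difference within them was not detectable at this depth. The intervals leave out the spread between libraries and the shift of TMM scaling, so they do not bound the true ratio. With TMM in edgeR the log2 fold changes of SRSF11 and TRA2A were 0.43 and 0.44 (SE 0.49 each), both outside these intervals.

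Without control 1, which held 188 of the 263 control events in these genes, edgeR called SRSF5 (log2 fold change 3.08, adjusted p = 0.0417) and SRSF7 (3.73, adjusted p = 0.0421) higher. In that fit edgeR called 852 of the 52133 features tested higher and 9 lower. The median log2 fold change over all of them was 6.69, and both genes lay below it. The remaining control events of SRSF5 and SRSF7 numbered 2 and 1.

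The second comparison set the genes beside each other, on the scale of EPM per kb of interval. All 9 were crosslinked more densely than most of the genome that was tested, and the short genes were the densest. In QKI-5 libraries SRSF5 led with 16.9 ± 0.679 EPM per kb, followed by SRSF1 (15.7 ± 1.63), SRSF6 (15.04 ± 1.59) and SRSF2 (13.4 ± 2.42). SRSF3 held 10.1 ± 1.42, SRSF7 8.32 ± 1.38, TRA2B 8.17 ± 1.22, SRSF11 6.62 ± 1.05 and TRA2A 5.55 ± 0.370 EPM per kb (SD, n = 3). Each gene's library range overlapped that of the next gene in this order, while the range of SRSF5 (16.1 to 17.4) lay wholly above that of TRA2A (5.17 to 5.91).

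The other windows tested had a median of 1.64 EPM per kb in QKI-5 libraries. TRA2A was denser than 95.7% of these windows and SRSF5 denser than 99.6%, with the other 7 genes between. Windows differ from genes in that many lie partly outside any transcript. Across the 9 genes, length and density had a Spearman rho of -0.85 in QKI-5 libraries and -0.6 in controls, given as a description over 9 genes that share libraries. In controls the means ran from 4.48 ± 4.60 EPM per kb in SRSF7 to 21.8 ± 20.9 in SRSF1 (SD, n = 3), and the long genes TRA2A, TRA2B and SRSF11 lay at 6.36, 6.90 and 7.74. Transcript abundance was not measured, and a dense gene and an abundant transcript cannot be told apart here.

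Events kept to the strand of the gene. The 3 QKI-5 libraries together held 39 events on the opposite strand of the 9 intervals, so that 99.7% (95% exact binomial interval 99.6 to 99.8) were on the gene's own strand. Controls held 0 opposite-strand events beside their 263. Of the 39, 15 were at SRSF7, 13 at SRSF2, 7 at SRSF11, 3 at SRSF1 and 1 at SRSF6, and SRSF3, SRSF5, TRA2A and TRA2B had none. RefSeq on GRCh38.p14 lists MFSD11 and MIR636 as overlapping SRSF2, LOC101929185 as overlapping SRSF1 and LOC100289511 as overlapping SRSF5. The strand of these entries was not used. Events on 1 or the other strand of these 3 intervals may therefore belong to another gene.

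The 5′ edge of each interval was sharp. In the 5 kb upstream, on the same strand, the QKI-5 libraries held 1 event at SRSF1, 3 at SRSF7 and none at the other 7 genes. The 3′ edge was not. In the 5 kb downstream, SRSF1 held 10.7, 8.31 and 12.7 EPM per kb in QKI-5 replicates 1, 2 and 3, which averages 67.4% of the density inside its interval, against 4.35, 4.82 and 6.71 EPM per kb in controls, from 5 events in all. SRSF3 held 4.72, 4.01 and 4.71 EPM per kb there in QKI-5 libraries (44.2% of its own density), against 5.80, 0 and 0 in controls. For TRA2B the downstream values were 2.44, 1.31 and 4.85 EPM per kb in QKI-5 libraries, so QKI-5 replicate 3 stood above the others, against 4.35, 4.82 and 0 in controls.

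In SRSF1 the downstream signal was first under 10% of the gene's density in the 12th kb past the interval. RefSeq on GRCh38.p14 lists an SRSF1 entry that is 11781 nt longer than the hg19 interval. It also lists entries longer by 1084 nt for SRSF3, 606 nt for SRSF6 and 1226 nt for TRA2B. Only lengths were compared, so the end at which these entries are longer is not known here. The entries of SRSF5, SRSF11 and TRA2A differ by -49, -14 and -60 nt, and those of SRSF2 and SRSF7 by 0. In the 5 kb downstream SRSF5, TRA2A and SRSF7 held 17.6, 21.8 and 15.7% of their own density in QKI-5 libraries, against 10.2% in SRSF6. Counts of genes with events past the end depend on where the interval ends. SRSF2 and SRSF11 held little past the end, 4.57 and 5.14% of their own density. Whether downstream events belong to longer transcripts of these genes or to neighbours on the same strand was not tested.

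**Figure D3:**
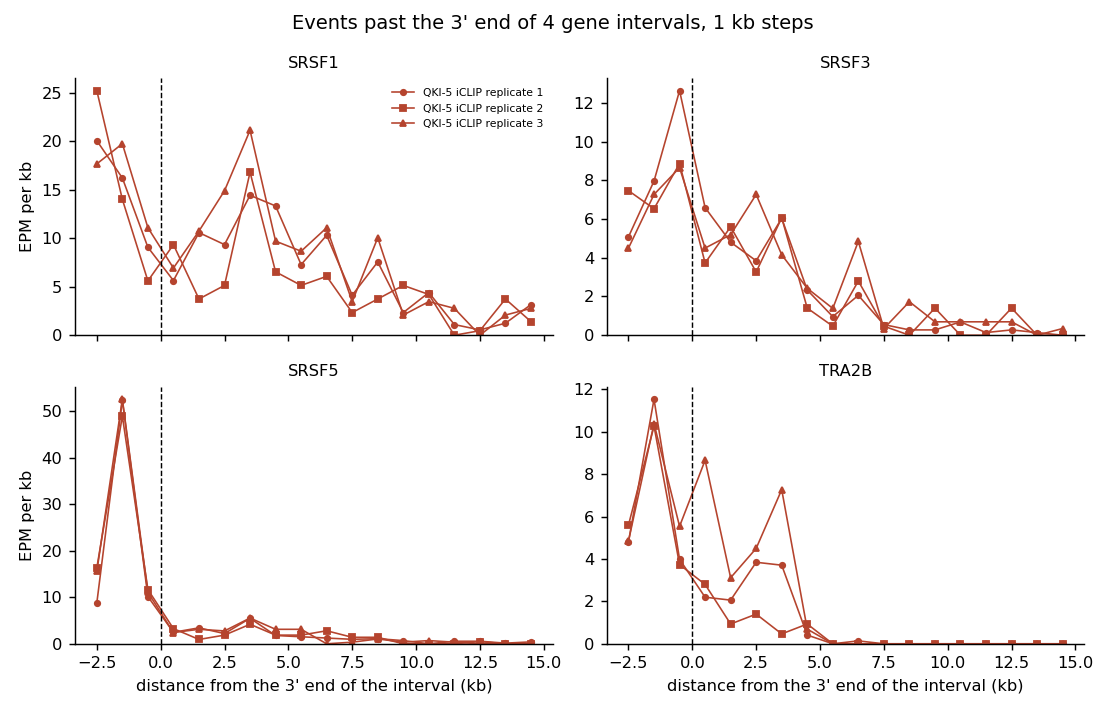
EPM per kb in 1 kb steps (y axis) against distance from the 3′ end of the interval in kb (x axis, dashed line at the end) for SRSF1, SRSF3, SRSF5 and TRA2B in the 3 QKI-5 libraries. SRSF1 holds 14.4, 16.8 and 21.1 EPM per kb in the 4th kb past the end and 1.10, 0 and 2.77 in the 12th, while SRSF5 drops from its cluster inside the gene to 2.96 EPM per kb over the 5 kb downstream.

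The third comparison followed where along each transcript the events fell. Patterns were uneven and recurred between QKI-5 libraries. Over 200-nt bins, the Pearson correlation of the share of events between pairs of QKI-5 libraries was 0.88 to 0.94 for SRSF5 (25 bins), 0.70 to 0.89 for SRSF6 (29 bins), 0.77 to 0.89 for SRSF11 (237 bins) and 0.42 to 0.63 for TRA2B (112 bins). These are descriptions, since bins share the same RNA sequence and mappability in every library.

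SRSF5 was the most focal of the 9, by the share of bins that held 50% of its events. Its leading 200-nt bin, the one with the highest mean share of the gene's events, lay 3000 to 3200 nt from the 5′ end (chromosome 14, plus strand, 70236810 to 70237009, hg19). It held 238 of 576, 52 of 183 and 60 of 243 events in replicates 1, 2 and 3 of QKI-5, or 41.3, 28.4 and 24.7%, where even coverage would give 4.07%. The next bin, 3200 to 3400 nt in, held 124, 44 and 77 events, or 21.5, 24.0 and 31.7%, so it was the lower one in replicates 1 and 2 and the higher one in replicate 3. Control 1 held 1 of 17 SRSF5 events in the leading bin and 8 of 17 in the next one. An average of 2 of the 25 bins contained 50% of SRSF5 events in QKI-5 libraries.

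Because a leading bin is picked for its height, a stretch of 400 nt was also picked on QKI-5 replicate 1 alone and measured in the other libraries. For SRSF5 it was 70236810 to 70237209. It held 52.5 and 56.4% of SRSF5 events in QKI-5 replicates 2 and 3, and 9 of 17 events in control 1, with 0 of 2 in control 2 and no SRSF5 event at all in control 3. Pooled, the shares were 54.7% in the held-out QKI-5 libraries (95% exact binomial interval 49.8 to 59.5) and 47.4% in controls (24.4 to 71.1), over 8.14% of the gene's length. The intervals overlap.

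Within that stretch, 25-nt steps at 2 places were high in all 3 QKI-5 libraries. The step from 3100 to 3125 nt held 157, 26 and 28 events in QKI-5 replicates 1, 2 and 3, against 0 in each control. Those were 27.3, 14.2 and 11.5% of SRSF5 events, and 0 of 19 control events allows up to 15.8%. The step from 3200 to 3225 nt held 52, 29 and 33 events in QKI-5 libraries, against 4, 0 and 0 in controls. As shares of SRSF5 events these were 9.03, 15.8 and 13.6%, against 23.5% in control 1, from 17 events. The step after it, 3225 to 3250 nt, held 12, 3 and 34 events in QKI-5 libraries, against 2, 0 and 0 in controls, and was the highest step of the stretch in QKI-5 replicate 3 but not in the other two. Position 70237032, at 3223 nt, held 21 of 576, 11 of 183 and 14 of 243 SRSF5 events in QKI-5 replicates 1, 2 and 3. All controls together held 2 of 19 there, so by share they were not lower. SRSF5 also had the most events per occupied position of the 9 genes in each QKI-5 library, 1.98, 1.99 and 2.31, against 1.39, 1.72 and 1.75 over each whole library. The sources used here do not say whether such repeats are PCR copies.

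SRSF6 was focal nearer its 5′ end. Its leading bin, 1800 to 2000 nt in (chromosome 20, plus strand, 42088304 to 42088503), held 256 of 706, 26 of 174 and 62 of 234 events in replicates 1, 2 and 3 of QKI-5, or 36.3, 14.9 and 26.5%. Controls held 1 of 18 SRSF6 events in that bin. The stretch picked on QKI-5 replicate 1, 42088104 to 42088503, held 24.7 and 31.6% in QKI-5 replicates 2 and 3, and 1 of 18 SRSF6 events in controls. The pooled shares were 28.7% (24.3 to 33.3) in held-out QKI-5 libraries and 5.56% (0.141 to 27.3) in controls. A neighbouring step from 1575 to 1600 nt held 29, 8 and 29 events in QKI-5 libraries, against 2, 0 and 0 in controls. As shares of SRSF6 events these were 4.11, 4.60 and 12.4%, against 14.3% in control 1, from 14 events.

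SRSF3 had a broader cluster past its middle. Its leading bin (chromosome 6, plus strand, 36568090 to 36568289) held 13.2, 9.73 and 6.32% of SRSF3 events in QKI-5 replicates 1, 2 and 3. That bin ranked 1, 1 and 2 in them. The stretch picked on QKI-5 replicate 1, 6000 to 6400 nt from the 5′ end (chromosome 6, plus strand, 36568090 to 36568489), held 18.1 and 15.02% of SRSF3 events in QKI-5 replicates 2 and 3, over 3.94% of the length. Controls held 0 of 26 events there, which allows a share of up to 13.2% by the exact interval. With each position counted once the held-out QKI-5 share was 16.3%, and controls held 0 of 21 positions. By the approximate rule of 3 events that allows up to 14.3%, and no exact interval was computed for positions. Among the 9 genes SRSF3 was one of 3, with SRSF7 and TRA2A, whose stretch picked this way held no control event.

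**Figure D4:**
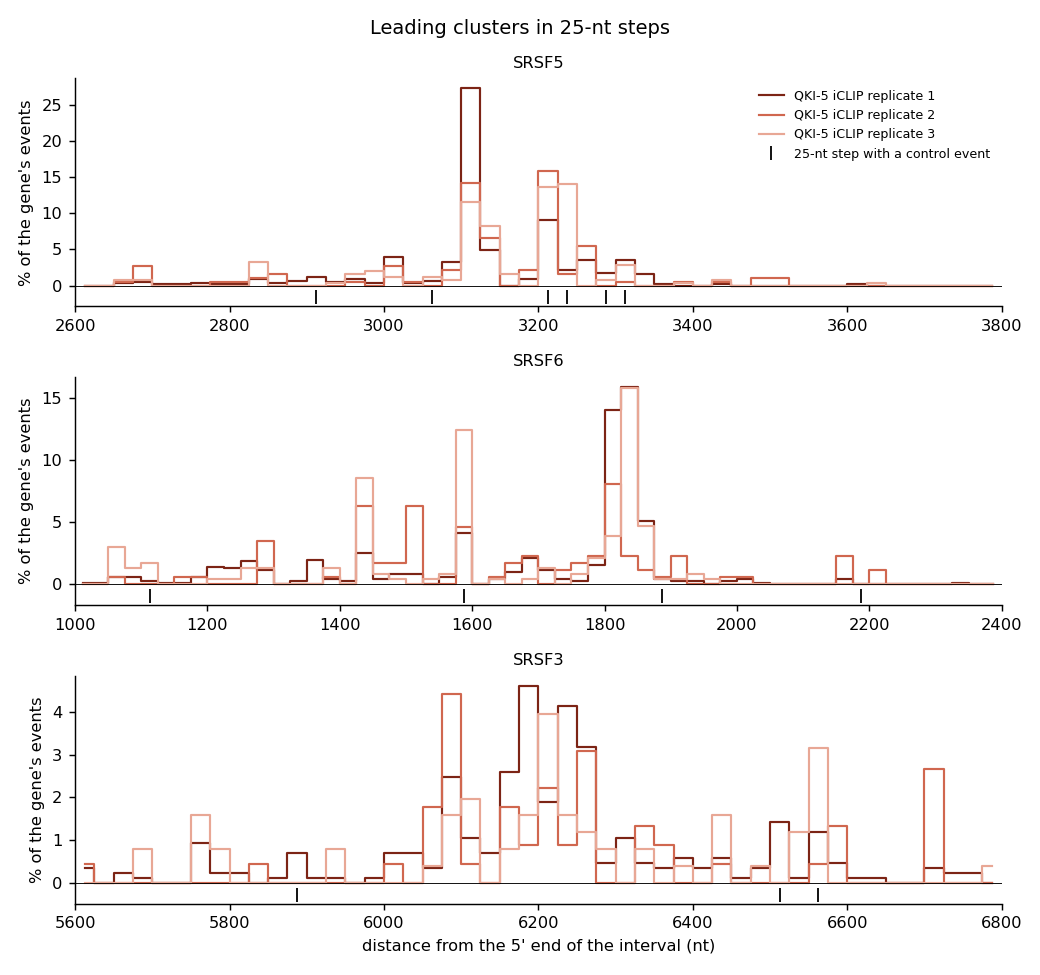
Share of the gene's events in 25-nt steps (y axis, percent) against distance from the 5′ end in nt (x axis) for SRSF5, SRSF6 and SRSF3 in each QKI-5 library, with ticks under the axis where any control had an event. SRSF5 is high at 3100 to 3125 and 3200 to 3225 nt in the 3 QKI-5 libraries and at 3225 to 3250 nt in replicate 3, and SRSF3 shows a broader rise between 6000 and 6400 nt with no control tick in it.

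SRSF1, SRSF2 and SRSF7 were spread more widely. The leading bin of SRSF1 (chromosome 17, minus strand, 56082508 to 56082707) held 12.3, 8.79 and 6.60% of SRSF1 events in QKI-5 replicates 1, 2 and 3, and ranked 1, 2 and 5 in them. That of SRSF2, near the 3′ end (chromosome 17, minus strand, 74730494 to 74730693), ranked first in all 3 with 14.96, 18.3 and 23.4%. Controls held 1 of 29 events in the leading bin of SRSF1 and 1 of 13 in that of SRSF2. With each interval cut into 10 equal sections from 5′ to 3′, SRSF2 had 0 events in section 3 in any library. SRSF7 also kept 1 leading bin in all 3 QKI-5 libraries (chromosome 2, minus strand, 38974037 to 38974236), with 13.4, 11.5 and 13.9%, against 0 of 11 events in controls.

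The stretch of SRSF1 picked on QKI-5 replicate 1 held 13.4 and 8.68% in QKI-5 replicates 2 and 3, against 7 of 29 control events (24.1%, interval 10.3 to 43.5). Of those 7, 5 came from control 3 and 2 from control 1, and the 7 lay at 3 positions. Counting every position a single time gave 11.9% in held-out QKI-5 libraries and 14.3% in controls.

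In SRSF11 the events filled a middle block. Its sections 4, 5 and 6 together held 70.9, 63.9 and 74.1% of SRSF11 events in QKI-5 replicates 1, 2 and 3, against 62.7, 80 and 54.5% in controls 1, 2 and 3. Chosen on QKI-5 replicate 1, those sections held 70.6% (68.3 to 72.8) in the held-out QKI-5 libraries and 64.9% (53.2 to 75.5) in controls, over 30% of the length. The interval of the QKI-5 share lies within that of the control share. Its leading bin (chromosome 1, plus strand, 70689965 to 70690164) held 6.35, 4.58 and 6.84% in QKI-5 libraries, 14.03 times even coverage, against 3.90% in controls from 3 events.

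TRA2A had a gap, as did SRSF6 and SRSF11. Its sections 5, 6 and 7 each held 1.32 to 3.64% of TRA2A events in every QKI-5 library, while each of sections 1 to 3 held 12.9 to 23.6%. The pooled controls held 1, 2 and 3 of 36 events in that gap, or 2.78, 5.56 and 8.33%. Counts this small do not show whether controls share it. In QKI-5 libraries sections 5 and 6 of SRSF6 each held 0 to 2.30% of its events. Sections 7 and 8 of SRSF11 each held 1.76 to 3.70%. The leading bin of TRA2A (chromosome 7, minus strand, 23551261 to 23551460) lay past its gap and ranked first in each QKI-5 library. It held 5.46, 5.96 and 4.55%, against 0 of 36 control events, which allows up to 9.74% by the exact interval.

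TRA2B, the paralog, had no such gap. Its section 2 led in each QKI-5 library, with 26.3, 14.8 and 20.2% of TRA2B events, against 6 of 34 events in controls. Its leading bin (chromosome 3, minus strand, 185652925 to 185653124) held 3.88, 3.02 and 5.52% in QKI-5 replicates 1, 2 and 3. Controls held 0 of 34 events there, which allows up to 10.3% by the exact interval. The bin ranked 3, 5 and 1 in QKI-5 replicates 1, 2 and 3, so it was less settled than those of SRSF2, SRSF7 and TRA2A.

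**Figure D5:**
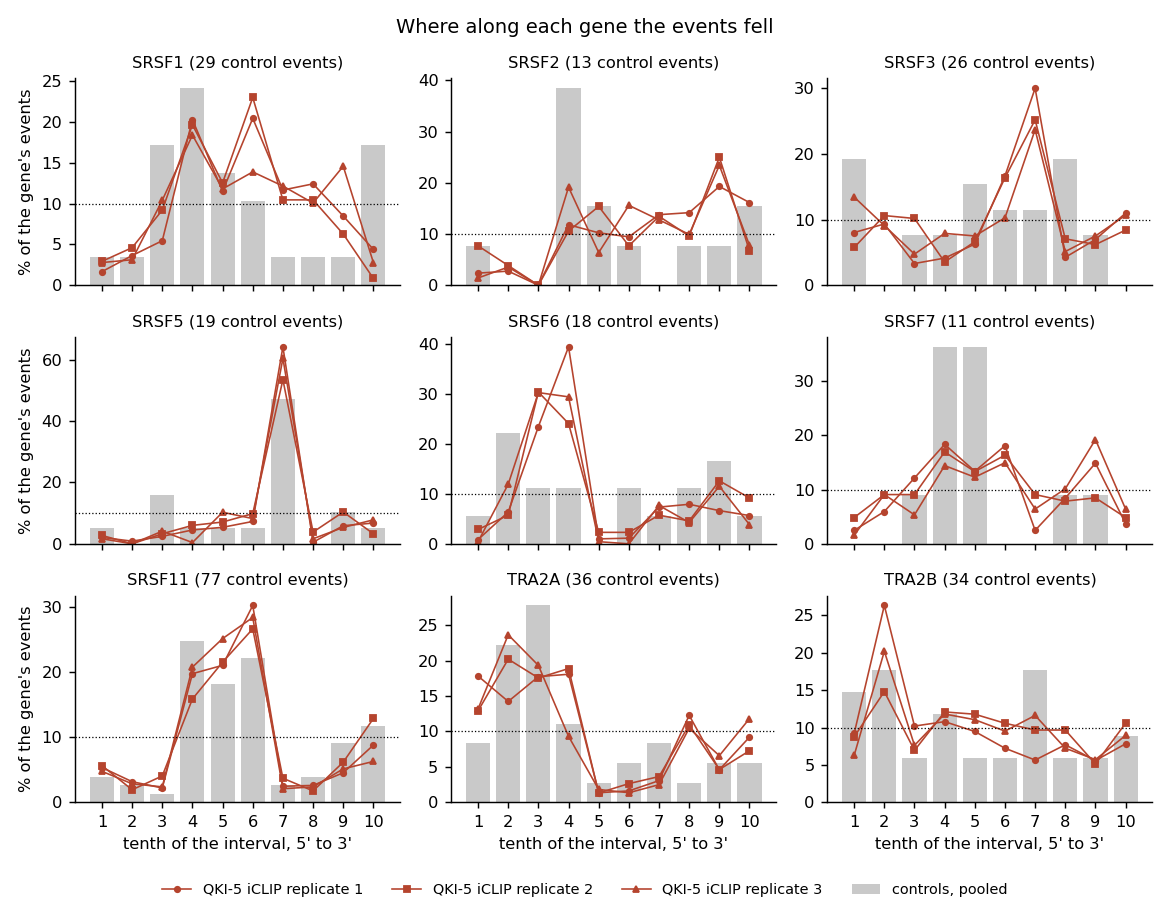
Share of each gene's events (y axis, percent) in 10 equal sections of its interval from 5′ to 3′ (x axis), with lines for the 3 QKI-5 libraries, grey bars for the pooled controls and a dotted line at the 10% of even coverage. QKI-5 lines peak in section 7 of SRSF5 in all 3 libraries, where controls had 9 of 19 events, and fill sections 4 to 6 of SRSF11, where controls had 50 of 77.

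Summed over the 9 genes, the 3 leading sections of each, chosen on QKI-5 replicate 1, took in 52.4 and 56.3% of the total in QKI-5 replicates 2 and 3, against 47.3, 42.5 and 45.7% in controls 1, 2 and 3. Chosen on QKI-5 replicate 3 they held 57.4 and 52.0% in QKI-5 replicates 1 and 2, against 48.9, 65.0 and 54.3% in controls, so the groups overlapped with that choice. With libraries pooled, that choice gave 56.2% in QKI-5 libraries (55.3 to 57.2) and 52.1% in controls (45.9 to 58.3).

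Some exact positions carried events in all 3 QKI-5 libraries. The highest share was in SRSF6, where 15 of 507 positions with an event in any QKI-5 library (2.96%) had one in all 3, and the lowest in TRA2B, with 15 of 1420 (1.06%).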

How the data were processed

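Each of the 6 deposited files holds whole-number counts of crosslink events per position and strand, for 1 library and not normalized. The authors used cutadapt, Bowtie and hg19, per the submitters' processing notes, with versions not given in the sources used here. Merging of PCR copies and placing of multiply aligned reads are not given either, and RefSeq names pseudogenes of SRSF1, SRSF2, SRSF3, SRSF6 and SRSF11, so part of their reads could be misplaced. Events were summed over the 9 intervals and over strand-specific 10 kb windows for the rest of the genome, less the intervals.

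The table was fitted with edgeR 4.0.16 (R 4.3.3, TMM, filterByExpr, group as the only term, Benjamini-Hochberg over all features). DESeq2 1.42.0 was an alternative. The SE is the log2 fold change over the root of the F statistic. The fit was tested on simulated data. Shares carry exact Clopper-Pearson intervals (95%). Where no exact interval was computed, a count of 0 was taken to allow up to 3 events, which is an approximation. Profiles used Python 3.11.15.

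The members, lists and tests were chosen with earlier results of these data known. All 9 genes were named whatever their values, with the leading 200-nt bin of each. Stretches of 400 nt, 25-nt steps, equal sections of each gene, flanks and single positions were chosen after their values were seen. Other genes of the pathway and cell type markers, listed in the plan, are not analysed here, since no hg19 annotation was used. Crosslinked sequences are not shown for the same reason. Same-numbered QKI-5 and control libraries had deviations correlated at 0.00087, 0.11 and 0.072, so the numbers were not taken as pairs.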

Additional observations from a re-analysis of the deposited data

How the results depend on the processing

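The count of SR and TRA2 genes called lower was 0 under every alternative run. The count called higher was 0 in every run but the fit without control replicate 1. There it was 2, so leaving out 1 library gave 0 to 2 called higher. That fit called 852 of 52133 features higher and 9 lower. With the replicate block, edgeR also called 0 of the 9 genes and 0 features in all. An unadjusted p under 0.05 in edgeR was found for 2 of the 9 genes without the filter, against 16665 of 174730 features. It was found for 2 with 5 kb windows (6637 of 24530 features) and for 9 without control replicate 1 (13372 of 52133). In the other edgeR fits it was found for 0. Of the whole table, edgeR called 213 higher and 32 lower, DESeq2's Wald test 226 and 133, DESeq2 size factors 82 and 35, library totals 23 and 58, no filter 159 and 6, distinct positions 26 and 66 and 5 kb windows 1488 and 51.

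The signs of uncalled fold changes were not stable. With library totals they were -0.44 for SRSF1, -0.46 for SRSF2, -0.27 for SRSF3, -0.038 for SRSF5, -0.23 for SRSF11 and -0.18 for TRA2A. With distinct positions they were -0.0027 for SRSF1, -0.44 for SRSF2, -0.15 for SRSF5 and -0.085 for SRSF6. With DESeq2 size factors they were -0.045 for SRSF1 and -0.11 for SRSF2, and by the Wald test -0.030 and -0.094. Leaving out 1 library gave ranges of -0.65 to 1.37 for SRSF1, -0.030 to 2.16 for SRSF2, -0.42 to 1.24 for SRSF3, -0.25 to 3.08 for SRSF5, -0.065 to 2.15 for SRSF6, -0.40 to 1.31 for SRSF11 and -0.27 to 1.37 for TRA2A. The fits without QKI-5 replicate 1, 2 or 3 tested 891, 951 and 936 features, against 29951 in the main fit. Those without a control tested 52133 to 54843. The ranges therefore mix a change in the features tested with the loss of a library. SRSF7 and TRA2B kept a positive sign in each fit that tested them. SRSF2 did not pass the filter without any 1 QKI-5 library, nor SRSF7 without QKI-5 replicate 2.

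The ratio of the 9 genes' share of events, 0.967, became 0.794 with distinct positions and lay between 0.890 and 1.06 when 1 library was left out. The held-out share of the 3 leading sections, as a mean over libraries in QKI-5 minus control, was 9.14 points when they were chosen on QKI-5 replicate 1, 6.28 on replicate 2 and -1.40 on replicate 3, a choice added after seeing the data. The cause of these changes was not tested. QKI-5 replicates 2 and 3 correlated best with the control of their own number (0.11 and 0.072) and QKI-5 replicate 1 with control 3 (0.055), a hint from the data and not from the design. The 29810 to 137926 events of a control library limit the single-gene comparisons.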
